A study of Mus musculus with 8 samples.

Results

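Most of the genes described here carry long-chain fatty acids into mitochondria or oxidize fatty acids there, and *Pdk4* and *Ppard* are regulators. *Cpt1a* was the member around which they were gathered. They are 10 genes listed by symbol, *Cpt1a*, *Cpt2*, *Slc25a20*, *Acadm*, *Acadl*, *Acadvl*, *Hadha*, *Hadhb*, *Pdk4* and *Ppard*, of 24059 symbols in the count tables. All 10 had enough reads to be tested, as did 14934 of all symbols. The list was chosen by values of the same contrast, chiefly the log2 difference of *Cpt1a* between both groups, so this difference, and those of the other members, are given as a description without a test. What the choice did not use are the levels of the members and their differences between replicate numbers. The other genes of the pathway were listed by known function, though with earlier results of these data known.

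RNA was sequenced from resting BMMCs, mast cells that were differentiated with IL-3 for at least 4 wk from the marrow of C57BL/6 mice aged 6 to 8 wk. Cells of 4 mice were electroporated with Cas9-gRNA ribonucleoproteins (RNPs) and lysed 1 wk later. In the scrambled RNP group (genotype Zc3h12a WT, n = 4) the guide was non-targeting, and in the *Zc3h12a* RNP group (genotype Zc3h12a KO, n = 4) 3 guides targeted *Zc3h12a*, the gene of the RNase Regnase-1. Both groups therefore had Cas9, electroporation and IL-3 in common, and each sample was a pool of transfected cells rather than an edited clone. A pair is the scrambled and the *Zc3h12a* RNP sample that carry 1 replicate number.

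Reads on genes numbered 19610240 to 33986762 per sample after scrambled RNP and 23712029 to 28564062 after *Zc3h12a* RNP. Levels are given as CPM, the counts scaled to library size after TMM normalization. The mRNA of *Zc3h12a* was at 34.8 ± 6.65 CPM after scrambled RNP and 33.2 ± 5.91 after *Zc3h12a* RNP (mean ± SD, n = 4 each), so the RNA level did not separate the groups and is no check of the editing. All 10 mast cell markers had reads, with a sum of 50958 to 60795 CPM after scrambled RNP and 49115 to 52067 after *Zc3h12a* RNP, led by *Cpa3*. Basophil markers summed to 501 to 542 and 445 to 511 CPM, nearly all from *Cd200r3*. Each list of macrophage, neutrophil, B cell, T cell, erythroid and eosinophil markers summed to at most 5.71 CPM in every sample, with *Cd8a* at 0. The neutrophil markers *Elane*, *S100a8* and *Camp*, the erythroid *Hbb-bs* and the eosinophil *Epx* were absent from the count tables and are not in these sums. Scrambled RNP samples 2 and 4 lay at opposite ends of the first principal component (65.7% of the variance), at -121 and 74.7. The other samples lay at -48.4 to 40.4. Values without samples 2 and 4 are therefore given where they matter.

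As background, long-chain fatty acids cannot cross the inner mitochondrial membrane as CoA esters. CPT1A on the outer membrane transfers the acyl group to carnitine, a step inhibited by malonyl-CoA, the carrier SLC25A20 exchanges acylcarnitine for carnitine, and CPT2 on the matrix side forms acyl-CoA again. Acyl-CoA dehydrogenases and the trifunctional protein then shorten the chain by repeated rounds of oxidation, while PDK4, which inactivates pyruvate dehydrogenase, and the nuclear receptor PPARδ are known for shifting cells from glucose to fatty acids.

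The sequences before the starts of *Cpt1a* and *Slc25a20* are shown because these were the members higher in all 4 pairs, and that of *Hadhb* because it is shared with *Hadha*. Each is the 250 bases before the RefSeq start in GRCm38.p6, 5′ to 3′ on the strand of the gene, at chr19:3323051-3323300 (+), chr9:108661886-108662135 (+) and chr5:30155003-30155252 (+). Capitals mark GC boxes (GGGCGG or its reverse complement CCGCCC) and, in *Cpt1a*, also the nuclear receptor half-site (AGGTCA, here as TGACCT) and a CCAAT box.
Cpt1a: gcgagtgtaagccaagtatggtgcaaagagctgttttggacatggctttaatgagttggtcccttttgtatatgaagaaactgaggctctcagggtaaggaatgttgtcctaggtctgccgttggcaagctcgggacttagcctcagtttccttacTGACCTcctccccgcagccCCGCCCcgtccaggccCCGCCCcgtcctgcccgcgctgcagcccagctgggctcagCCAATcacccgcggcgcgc
Slc25a20: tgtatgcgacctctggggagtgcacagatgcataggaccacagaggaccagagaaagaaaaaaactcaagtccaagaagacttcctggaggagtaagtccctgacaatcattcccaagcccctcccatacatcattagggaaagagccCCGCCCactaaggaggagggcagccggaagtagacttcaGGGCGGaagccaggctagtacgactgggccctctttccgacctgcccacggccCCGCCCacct
Hadhb: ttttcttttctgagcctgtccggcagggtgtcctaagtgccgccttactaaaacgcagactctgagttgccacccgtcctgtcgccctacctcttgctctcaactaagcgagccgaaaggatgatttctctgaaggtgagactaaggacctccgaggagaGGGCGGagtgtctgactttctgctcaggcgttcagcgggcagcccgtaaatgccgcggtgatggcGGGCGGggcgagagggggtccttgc
*Hadha* and *Hadhb* are transcribed away from each other, with 272 bases between their RefSeq starts. Their GENCODE spans (chr5, GRCm39) overlap, as *Hadha* reaches 30360187 and *Hadhb* begins at 30359204. On both strands, the half-site was present in 3 of 10 members (*Cpt1a*, *Acadm* and *Acadvl*) and in 14.0% of 32851 RefSeq promoters of this length. The GC box was present in 7 members and in 32.7% of all promoters, and the CCAAT box in *Cpt1a*, *Pdk4* and *Ppard* and in 33.8%. None held TCAAGGTCA, the binding sequence of estrogen-related receptors (0.387% of promoters), TATAAA (12.4%), or a direct repeat of the half-site spaced by 1 base with at most 2 differences (3.24%). The median GC content was 58.8% in members and 52.4% in all promoters. These are matches of letters, and no binding was measured.

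Levels were compared between genes as CPM per kilobase of the canonical transcript. In scrambled RNP samples *Acadl*, the long-chain acyl-CoA dehydrogenase, was the most abundant member at 56.0 ± 8.28 CPM per kilobase (mean ± SD, n = 4 here and in the following). *Acadm*, the medium-chain dehydrogenase, followed at 37.5 ± 1.41, and *Hadha*, the alpha subunit of the trifunctional protein, at 30.1 ± 2.92. *Hadhb*, its beta subunit, was at 23.7 ± 7.25 and the very long-chain dehydrogenase *Acadvl* at 23.0 ± 3.56. These enzymes of the oxidation cycle were all above the regulators and the carnitine shuttle. *Ppard* was at 12.8 ± 1.87 and *Slc25a20* at 9.84 ± 0.904 CPM per kilobase. *Cpt2* was at 4.29 ± 1.72 and *Cpt1a* at 3.65 ± 0.999, and *Pdk4* was lowest at 0.0972 CPM per kilobase. The ranges of neighbours in this order overlapped between *Hadha* and *Hadhb*, *Hadhb* and *Acadvl*, *Ppard* and *Slc25a20*, and *Cpt2* and *Cpt1a*, and were separate between the others. The order depends on the length used. With all annotated exons of a gene *Acadvl* stood second and *Hadhb* sixth, whereas *Acadl* remained the highest and *Cpt1a* and *Pdk4* the lowest. Of the canonical exons of *Hadha*, 47.5% are overlapped by *Garem2* on the opposite strand. The strand setting of the counting is not stated, so how reads from this overlap were counted is not known.

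**Figure D1:**
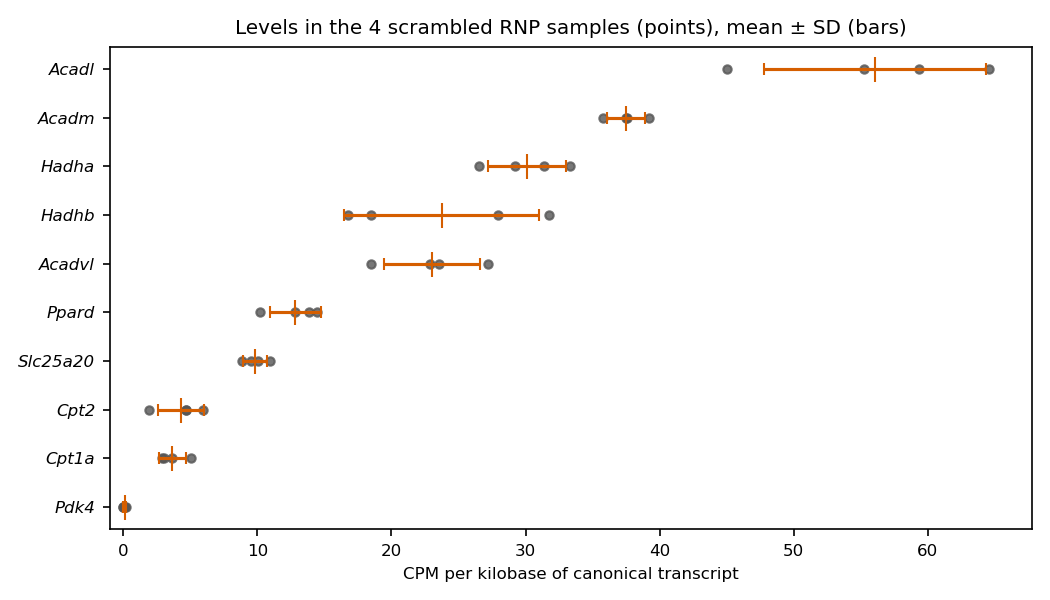
Levels of the 10 members in the 4 scrambled RNP samples as CPM per kilobase of canonical transcript (linear axis), with points for samples and bars for mean ± SD. *Acadl* was at 45.0 to 64.6, and *Cpt1a* at 2.87 to 5.07.

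Of the shuttle genes, *Cpt1a* was higher after *Zc3h12a* RNP in all 4 pairs, as was *Slc25a20* by a smaller amount, while *Cpt2* differed little. *Cpt1a* (chr19:3371853-3437996, + strand, GRCm39) was at 20.03, 33.4, 23.7 and 18.9 CPM in scrambled RNP samples 1 to 4 and at 40.1, 51.4, 37.1 and 26.5 CPM in *Zc3h12a* RNP samples 1 to 4. Scrambled sample 2 was above *Zc3h12a* RNP sample 4, so the groups overlapped although each pair differed in the same direction. The pair differences were 1.00, 0.62, 0.64 and 0.48 on the log2 scale. The fitted log2 fold change was 0.69 with a standard error of 0.101, or 1.61-fold, and 93.8% of tested genes had a lower one. Leaving out a replicate number gave 0.63 to 0.77, the highest without number 2. Over all genes the median log2 fold change was 0.04. Because bulk RNA was measured, a change in how many cells express a gene and a change in RNA per cell cannot be told apart.

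*Slc25a20* (chr9:108539250-108562760, +), the carnitine-acylcarnitine carrier, was at 16.9, 19.6, 17.9 and 15.8 CPM in scrambled RNP samples and at 17.8, 21.9, 24.7 and 19.7 CPM in *Zc3h12a* RNP samples. Its pair differences were 0.07, 0.16, 0.46 and 0.32, larger in pairs 3 and 4 than in pairs 1 and 2, with a log2 fold change of 0.25 (SE 0.095, and 0.13 to 0.36 with a number left out), and the groups overlapped. *Cpt2* (chr4:107751473-107780812, -), on the matrix side of the shuttle, was at 11.1, 4.50, 11.1 and 14.2 CPM after scrambled RNP and 9.81, 4.12, 11.7 and 15.3 CPM after *Zc3h12a* RNP. Both samples of number 2 were far below the rest, and the RNP made little difference within pairs (log2 fold change -0.02, SE 0.116). The ratio of *Cpt1a* to *Cpt2* CPM was 1.81, 7.43, 2.15 and 1.34 after scrambled RNP and 4.08, 12.5, 3.17 and 1.74 after *Zc3h12a* RNP. It was higher in all 4 pairs, and in both groups it was highest in number 2.

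**Figure D2:**
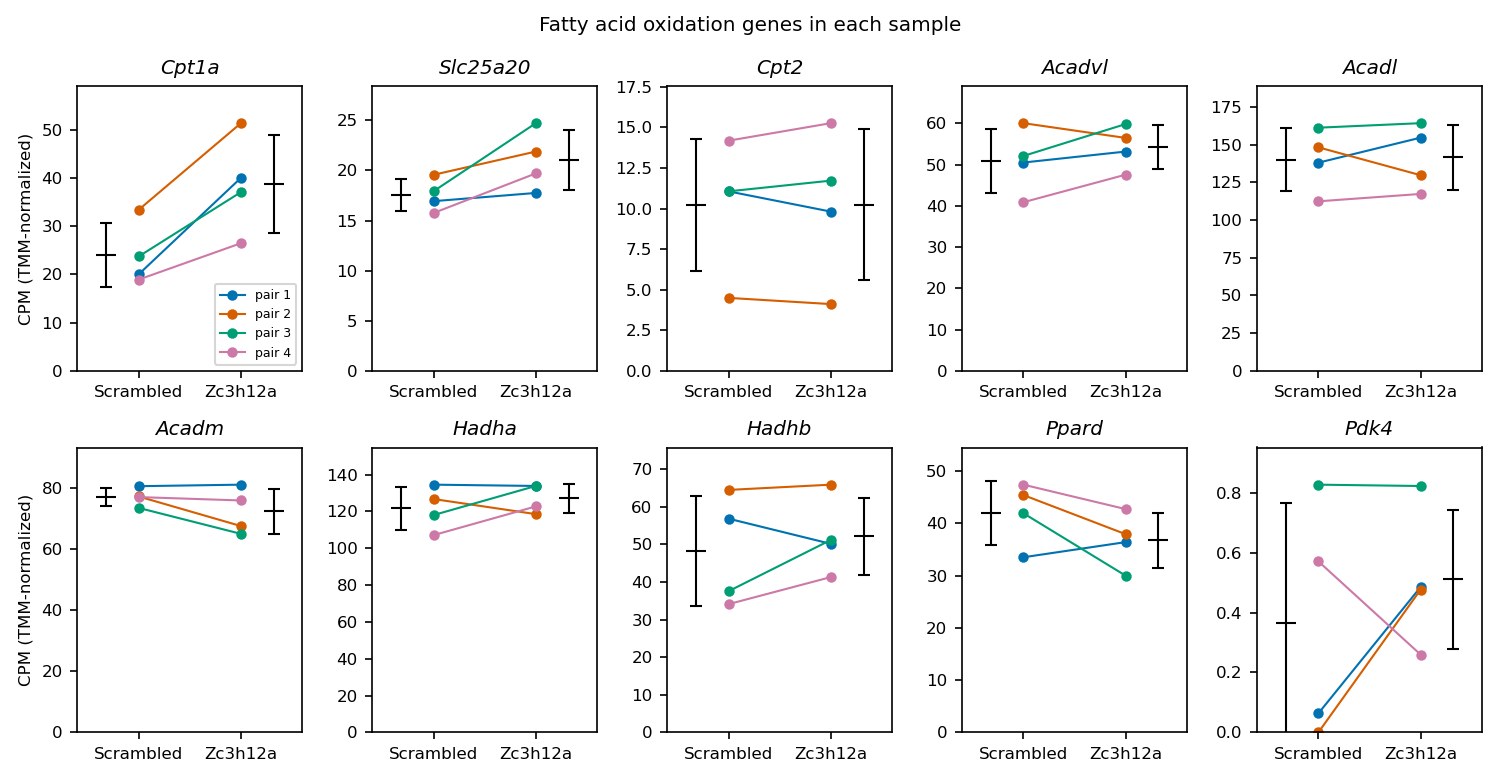
CPM of each member in the 8 samples (linear axes from 0), with lines joining pairs and black bars for mean ± SD of 4 samples, the bar of *Pdk4* ending at the axis. The lines of *Cpt1a* and *Slc25a20* go up in 4 of 4 pairs, and those of *Cpt2* lie apart by pair.

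The acyl-CoA dehydrogenases differed little between groups. *Acadvl* (chr11:69900853-69906270, -), which acts on the longest chains, was at 50.5, 60.0, 52.1 and 40.9 CPM after scrambled RNP and 53.2, 56.5, 59.8 and 47.6 CPM after *Zc3h12a* RNP, higher in 3 of 4 pairs (log2 fold change 0.10, SE 0.084). *Acadl* (chr1:66868267-66902633, -) was at 138, 148, 161 and 112 CPM and 155, 130, 164 and 117 CPM (0.02, SE 0.086), with its lowest level in number 4 of both groups. *Acadm* (chr3:153627989-153650317, -) was at 80.7, 77.3, 73.6 and 77.1 CPM and 81.2, 67.6, 65.1 and 76.0 CPM (-0.10, SE 0.079). Its scrambled RNP samples were the most alike of any member, with a coefficient of variation of 3.77%, against 40.0% for *Cpt2*. With all 4 pairs, for none of the 3 dehydrogenases was the log2 fold change beyond 0.10 in size, and their groups overlapped. With a replicate left out it was 0.014 to 0.225 for *Acadvl* and -0.042 to 0.145 for *Acadl*. For *Acadm* it was -0.121 to -0.001, and all 3 were highest without replicate 2.

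*Hadha* and *Hadhb* encode subunits of 1 complex. *Hadha* (chr5:30323302-30360187, -) was at 134.5, 126.7, 118 and 107.1 CPM after scrambled RNP and 133.8, 118.5, 133.8 and 122.7 CPM after *Zc3h12a* RNP, higher in 2 pairs and lower in 2 (log2 fold change 0.07, SE 0.085). *Hadhb* (chr5:30359204-30389997, +) was at 56.9, 64.5, 37.6 and 34.1 CPM and 50.2, 65.9, 51.2 and 41.3 CPM, higher in 3 of 4 pairs (0.14, SE 0.113). Without replicate 3 the log2 fold change was -0.02 for *Hadha* and -0.01 for *Hadhb*. Without replicate 2 it was 0.18 for *Hadha* and 0.24 for *Hadhb*, and without replicate 4 it was 0.03 and 0.10. Although both share the interval before their RefSeq starts, *Hadhb* varied more. Its coefficient of variation in scrambled RNP samples was 30.6%, against 9.70% for *Hadha*, and the ratio of *Hadhb* to *Hadha* CPM was 0.423, 0.509, 0.318 and 0.319 after scrambled RNP and 0.375, 0.556, 0.383 and 0.337 after *Zc3h12a* RNP. The ratio was highest in number 2 of each group.

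*Ppard* (chr17:28451674-28520448, +), which encodes PPARδ, was at 33.5, 45.4, 41.9 and 47.4 CPM after scrambled RNP and 36.4, 37.9, 30.0 and 42.7 CPM after *Zc3h12a* RNP. It was lower in pairs 2 to 4 and higher in pair 1, with a log2 fold change of -0.19 (SE 0.107), opposite in sign to that of *Cpt1a*. *Pdk4* (chr6:5483097-5496339, -) was close to the limit of detection, with 2, 0, 21 and 12 reads after scrambled RNP and 14, 11, 20 and 8 reads after *Zc3h12a* RNP. Its log2 fold change of 1.19 came with a standard error of 1.14, and its pair differences were 2.02, 2.89, -0.01 and -0.95. Other weakly expressed genes differed in the same pairs. Among 2497 tested genes with a mean log2 CPM below 0, the median pair differences were 0.47, 1.89, -0.02 and -0.98, and 191 of them had no read in scrambled sample 2. Without replicate 2 the log2 fold change of *Pdk4* was 0.38, and the part of the weakly expressed genes in its values was not tested. The other 9 members lie above the level at which pairs diverged in this way, as the plot of differences by level shows.

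**Figure D3:**
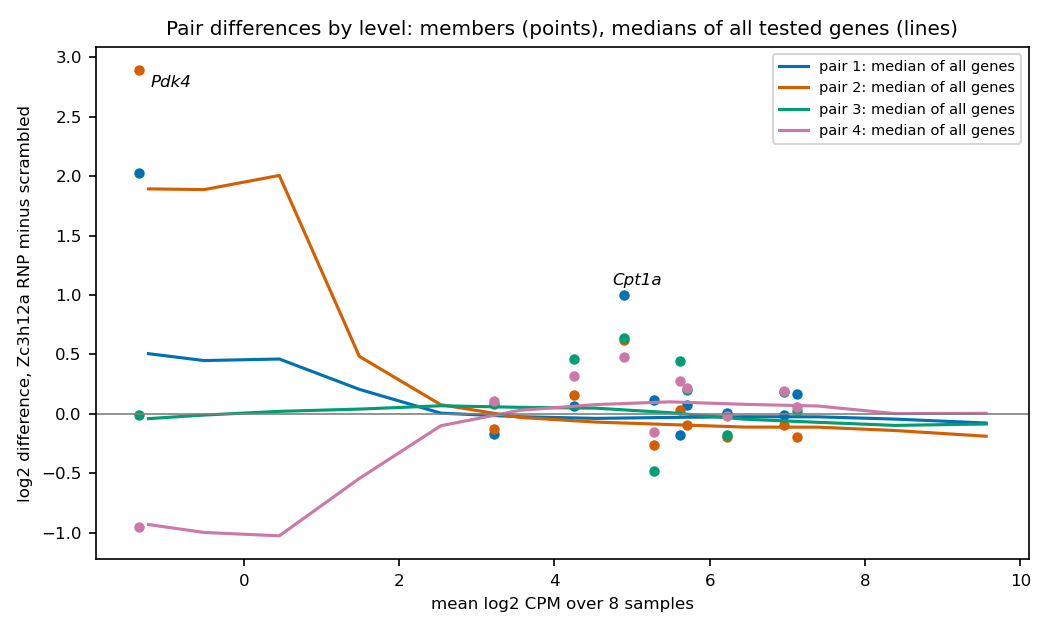
Log2 difference between *Zc3h12a* RNP and scrambled RNP in each pair against mean log2 CPM, with points for the members and lines for the median of all tested genes in bins of level. Below 1 on the x axis the lines lie at 1.89 to 2.01 in pair 2 and at -1.02 to -0.93 in pair 4, and the points of *Pdk4* lie close to the lines of pairs 3 and 4 and above those of pairs 1 and 2.

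**Figure D4:**
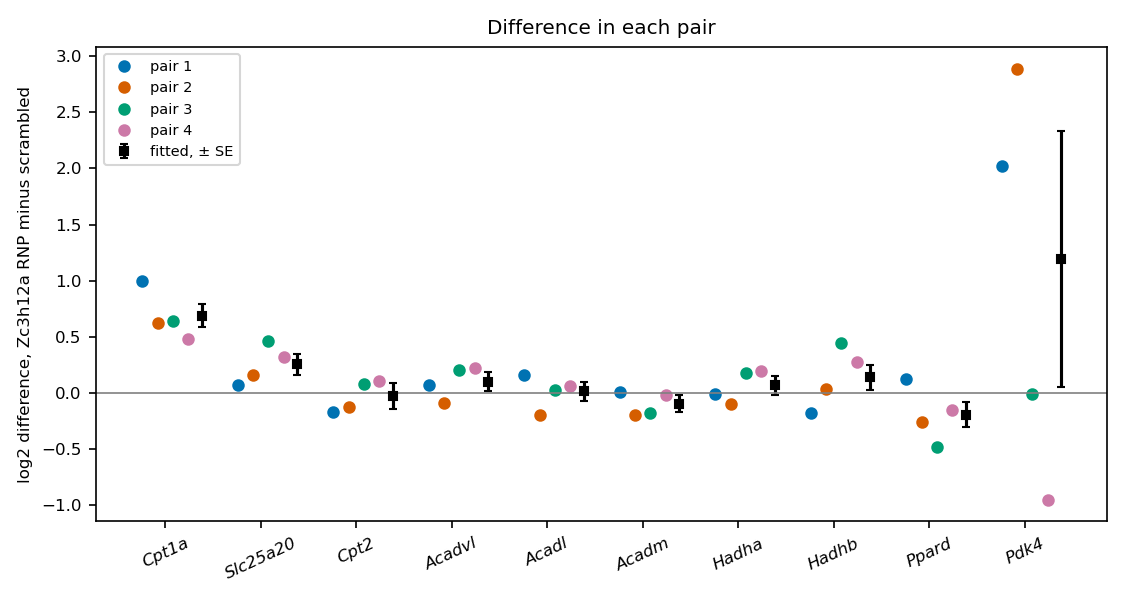
Log2 difference of each member in pairs 1 to 4 (colored points) and the fitted log2 fold change ± SE (black squares). All 4 points lie above 0 for *Cpt1a* (0.48 to 1.00) and *Slc25a20* (0.07 to 0.46), and on both sides of 0 for the other members.

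Counted together, 7 members had a log2 fold change above 0 and 3 below, with a median of 0.08 against 0.04 over all genes tested. No member was called, as was no gene of the whole table (0.0% of 14934 in either direction, at a log2 fold change beyond 0.5 and an adjusted p at or under 0.05 in edgeR's quasi-likelihood test, where the lowest adjusted p was 0.0558). Before adjustment, 317 genes (2.12%) were higher and 605 (4.05%) lower at the same limit of p, and DESeq2 called 8 genes higher and 52 lower. *Cpt1a* was the 1 member that was called in any alternative, as higher in DESeq2, after removal of the replicate effect, without replicate 2 and when weakly expressed genes were not filtered out. The fit after removal left replicate number out of its model, so its p-values were too small. Of the 10 members 2 were higher in all 4 pairs and 0 lower, beside 4.98% and 8.54% of all tested genes. As this contrast chose the members, nothing is read from these counts.

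Differences between replicate numbers did not enter the choice of the members and were tested, a test added after the values were seen. In edgeR's F test over the 4 numbers, 28.0% of all genes differed at an adjusted p at or under 0.05, and 3 of 10 members did, a share near this background. *Cpt2* had the widest range of these, from 4.31 CPM in number 2 to 14.7 in number 4, or 3.38-fold (edgeR, adjusted p = 0.00299). *Cpt1a* ran the other way, with 42.4 CPM in number 2 and 22.7 in number 4, or 1.85-fold (edgeR, adjusted p = 0.0152). *Hadhb* was also highest in number 2, at 65.2 CPM, and lowest in number 4, at 37.7, or 1.74-fold (edgeR, adjusted p = 0.0295). Without replicate 2 the adjusted p was 0.267 for *Cpt1a*, 0.196 for *Cpt2* and 0.107 for *Hadhb*, and no member differed. Under 5 other normalizations and filters, *Cpt2* differed in 5, *Cpt1a* in 4 and *Hadhb* in 1, and *Acadl* differed under upper quartile normalization (edgeR, adjusted p = 0.0491). Without replicate 3 the adjusted p of *Cpt1a* was 0.0598. For *Hadhb* no set of 3 numbers gave an adjusted p under 0.0862. The adjusted p was 0.0697 for *Acadl* and at least 0.119 for the other 6 members. The labels do not say what a number stands for beyond a replicate, so mouse, culture and day of preparation cannot be told apart.

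Across the 8 samples, the log2 CPM of *Cpt1a* had a Pearson correlation of 0.73 with *Acadvl*, 0.72 with *Slc25a20* and 0.65 with *Hadhb*, and of -0.67 with *Cpt2*. The correlations of the members with each other ran from 0.77 (*Acadvl* and *Hadhb*) to -0.84 (*Slc25a20* and *Acadm*). Of 9668 genes with a mean log2 CPM above 2, those most like *Cpt1a* were *Tspoap1* (0.95), *Kcnn4* (0.95), *Pkp4* (0.94), *Aif1l* (0.93) and *Gtf2h2* (0.92). These are descriptions over 8 samples that share their groups and pairs.

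*Cpt1b*, the muscle form of CPT1, had at most 13 reads in any sample and was not tested, and *Cpt1c*, a brain form, was at 6.74 ± 1.58 CPM after scrambled RNP and 6.58 ± 1.51 after *Zc3h12a* RNP. Per kilobase *Cpt1c* was at 2.40 ± 0.561 CPM after scrambled RNP, with a range that overlapped that of *Cpt1a*. Of the PPAR genes, *Ppara* had at most 1 read and *Pparg* at most 4, whereas *Ppard* had 729 to 1363. Of the pyruvate dehydrogenase kinases, *Pdk3* was the most abundant after scrambled RNP, at 29 ± 5.1 CPM per kilobase, and its log2 fold change was 0.04 (SE 0.095). *Pdk2* was at 17.7 ± 6.16 and 13.4 ± 3.07 CPM, lower in 3 of 4 pairs (-0.37, SE 0.146). *Pdk1* was at 10.8, 8.53, 14.0 and 58.8 CPM after scrambled RNP and 8.57, 11.7, 11.9 and 9.38 CPM after *Zc3h12a* RNP, and its log2 fold change of -0.69 was -0.04 without replicate 4.

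In 6 further lists of the pathway, 77 of 91 genes were tested, 48 with a log2 fold change above 0 and 29 below, and the median of 0.04 was that of all genes. None was called by edgeR or DESeq2. At an unadjusted p at or under 0.05 there were 1 higher and 2 lower, beside 2.12% and 4.05% of all genes. Those lower were *Acsl3* and *Pdk2*. Of the 13 tested genes of fatty acid activation and entry, 8 were above 0 and 5 below (median 0.06). *Acsl3*, an acyl-CoA synthetase, was at 16.3, 8.30, 23.0 and 26.8 CPM after scrambled RNP and 11.8, 6.50, 13.04 and 21.3 CPM after *Zc3h12a* RNP, lower in 4 of 4 pairs (-0.49, SE 0.108). The synthetases with the highest CPM, *Acsl5* and *Acsl4*, had log2 fold changes of 0.19 (SE 0.115) and -0.17 (SE 0.093).

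Of 17 other enzymes of mitochondrial oxidation, 11 were above 0 and 6 below (median 0.06), with *Decr1* at 0.11 (SE 0.126) and *Acat1* at -0.05 (SE 0.095) having the highest CPM. Of 15 tested peroxisomal genes, 9 were above 0 and 6 below (median 0.01). The peroxisomal genes with the highest CPM, *Scp2* and *Hsd17b4*, were at -0.14 (SE 0.081) and 0.13 (SE 0.103). Of 15 tested partners and regulators of PPARs, 10 were above 0 and 5 below (median 0.05), led in CPM by *Ncor1* (-0.11, SE 0.093) and *Med1* (0.05, SE 0.086). Only 6 of 16 further PPAR target genes were tested, all above 0 with a median of 0.40. Genes passing the filter were chosen anew in each alternative, so medians there need not be those of the same 6. The median of the PPAR targets passing was -0.07 without replicate 2. It was 0.16 when at least 10 counts were required in every sample, which *Cd36* and *Acot1* did not reach. The median pair differences of the 6 were 0.26, 0.84, 0.35 and -0.71. *Plin2*, which coats lipid droplets and had the highest CPM of them, was at 0.23 (SE 0.107), and *Acot2* at 0.01 (SE 0.139). *Cd36*, *Acot1* and *Lpl*, named after their values were seen, were at 1.42, 1.30 and 2.85 CPM after scrambled RNP. These levels lie in the range where the pairs diverged. Their fitted values were 0.67 (SE 0.813), 0.57 (SE 0.813) and 0.12 (SE 0.522). *Angptl4*, of the same list and also named after its values were seen, was at 4.43 CPM after scrambled RNP. Its fitted value was 0.56 (SE 0.249), and 0.36 to 0.73 when any replicate was dropped. Of 11 genes of the pyruvate dehydrogenase complex and its regulators, 4 were above 0 and 7 below (median -0.09, and 0.001 without replicate 1), with *Pdha1* at -0.11 (SE 0.083). Of the 77 genes 4 (5.19%) were higher in 4 of 4 pairs, among them *Mlycd*, *Etfdh* and *Angptl4*, beside 4.98% of all genes. Lower in 4 of 4 were 3, among them *Acsl3* and *Etfb*, beside 8.54% of all genes. Apart from *Acsl3* these were named after their values were seen.

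**Figure D5:**
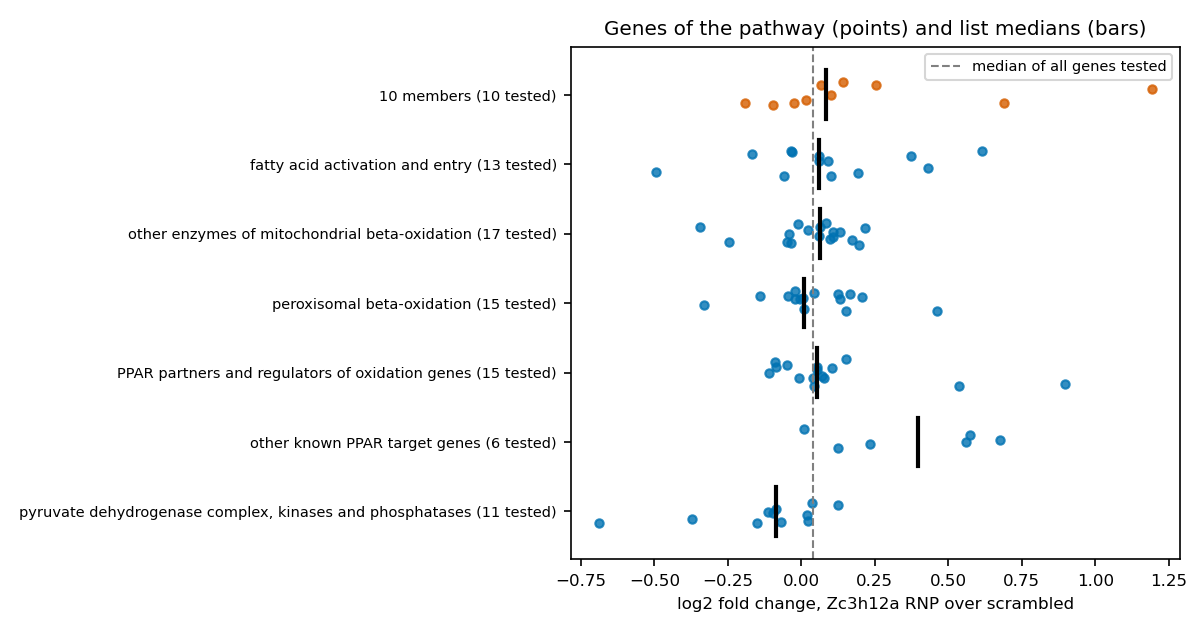
Log2 fold change of the members (orange) and of the genes of 6 further lists (blue), with black bars for medians and a dashed line at the median of all genes tested (0.04). The members spread from -0.19 to 1.19, and the list of 6 PPAR targets has a median of 0.40. Without replicate 2 the median of the PPAR targets that then passed the filter was -0.07.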

How the data were processed

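The values were raw counts of reads per gene symbol in 8 samples, which the authors deposited without batch correction. Per the submitters' processing notes and the study's methods, reads of poly(A) libraries were checked with FastQC 0.11.9, aligned to GRCm39 with HISAT2 2.2.1 and counted with featureCounts 2.0.1. The strand setting and the handling of reads with several matches are not given in the sources used here.

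Genes passing edgeR's filterByExpr by group were TMM-normalized and fitted with edgeR 4.0.16 in R 4.3.3 (quasi-likelihood test, replicate number as a block, Benjamini-Hochberg adjustment). Standard errors were derived from the F statistic. A prior count of 2 was added for log2 CPM. The members and lists were chosen with earlier results of these data known. Named genes are the members, their paralogs, pathway genes with an unadjusted p at or under 0.05, the 2 with the highest CPM per list and the 5 genes most correlated with *Cpt1a*. The values of some pathway genes are not reported here. Pairing follows the study's design of 4 mice given both RNPs. Deviations from group means correlated at 0.717 to 0.756 within a number and at most 0.137 between numbers (9668 genes). Counts of any replicates of a group differed beyond sampling noise (chi-square over its degrees of freedom at least 59.2). Samples held 19610240 to 33986762 counts, and the errors given come from the spread between the 4 replicates of a group or the 4 pairs. Alternatives were DESeq2 1.42.0, limma-trend (limma 3.58.1), other normalizations and filters, no block and leaving out a replicate. Positions and lengths of all 10 members came from GENCODE (GRCm39), and promoters from RefSeq (GRCm38.p6), which held all 10. Figures used matplotlib 3.10.9 in Python 3.11.15.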

Additional observations from a re-analysis of the deposited data

Results flagged for a closer look

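In 3 groups of 4 samples, of 64 examined over the members and named pathway genes, 1 sample lay far from the other 3, where chance alone gives 3.2. The gap to the nearest sample was 0.925 of the whole range for *Acsl4* in *Zc3h12a* RNP replicate 2, at 228 CPM against 121 to 129 in the others. It was 0.917 for *Scp2* in *Zc3h12a* RNP replicate 4, at 104.0 CPM against 133 to 136. It was 0.892 for *Pdk1* in scrambled RNP replicate 4, at 58.8 CPM against 8.53 to 14.0. None of the 10 members had such a sample.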

How the results depend on the processing

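The log2 fold change of *Cpt1a* stayed at 0.63 to 0.77 under 13 alternatives, and those of *Slc25a20*, *Acadm*, *Acadvl* and *Ppard* kept their sign in 13 and that of *Pdk4* in 12. *Cpt2* and *Acadl* changed sign in 5 each, and *Hadha* and *Hadhb* in 1. The median of the members was -0.018 to 0.204 with a replicate left out, the highest without replicate 2. Called higher and lower were 8 and 52 genes by DESeq2, 34 and 79 by limma-trend after removal of the replicate effect, 9 and 31 with no low-count filter, and 0 and 1 by limma-trend and by relative log expression normalization. With at least 10 counts in every sample 0 and 3 were called. With a replicate left out, 0 to 80 genes were called higher and 0 to 57 lower, the most without replicate 2, and 2 lower without replicate 4. *Cpt1a* was the 1 member called, in DESeq2, after removal of the replicate effect, without replicate 2 and with no low-count filter (members called higher with a replicate left out, 0 to 1). Of other pathway genes 0 to 1 were called lower with a replicate left out, which was *Pdk1* without replicate 2. Without the replicate block, 0 genes were called, and 104 had an unadjusted p at or under 0.05 against 922 with it, with 1 against 2 members and 0 against 3 pathway genes. Differing between replicate numbers were 2364 genes with relative log expression normalization and 1443 to 2878 with a number left out, and 0 to 2 members. The cause of these changes was not tested. Of 286 values of 22 named pathway genes, 18 had the other sign. Depth limits *Pdk4*, *Cpt1b*, *Ppara* and *Pparg*, with at most 21 reads in a sample.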
